A study of Gallus gallus with 6 samples.

Results

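Glycolysis, lactate export and the hypoxia response were followed through 40 listed genes in RNA sequencing of entire chicken embryos. They were at stage 10 of the Hamburger-Hamilton series, when the cranial neural crest is migrating and somites and the heart tube are forming. The embryos had been exposed to zinc oxide (ZnO) nanoparticles (ZnO 1, 2 and 3) or were controls (control 1, 2 and 3), with 3 libraries in each group, and the title of the series ties the exposure to cranial neural crest development and oxidant stress. The sources used here give no strain, dose, route or length of exposure, and they do not say whether a library was made from 1 embryo or from a pool, so the p-values measure the spread between these libraries, which may be partly technical. The stage labels carry windows of 34 to 42, 43 and 44 hours for ZnO 1, 2 and 3, and of 34 to 39, 40 and 41 hours for control 1, 2 and 3. The ends rise evenly, by 1 hour at each step from control 1 to ZnO 3, and whether they were measured is not known here. If those ends are measured ages, age and treatment cannot be told apart.

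The list was taken by name, with no measured value in its rule. Results for several of its genes were already known when the list was proposed. It holds 25 genes of glycolysis, glucose and lactate transport and pyruvate use, called the glycolysis members here, and 15 genes of oxygen sensing and the hypoxia response, called the hypoxia members. Of the 40, 37 matched a RefSeq symbol and 2 a synonym, so that 39 of the 24098 genes in the files are members. The gene with ID 395833, listed as PGK2 with the synonym PGK1, was taken as PGK1, and ID 396456, listed as PKLR with the synonym PKM, was taken as PKM. ANKRD37 had no match and was not analysed here. A gene was tested if its level averaged 1 FPKM or more across the 6 libraries, which 38 members met, 24 of glycolysis and 14 of the hypoxia response. The exception was PDK4, at 0.712, 1.09 and 0.817 FPKM in ZnO 1, 2 and 3 and 0.653, 0.569 and 0.589 FPKM in control 1, 2 and 3. FPKM is the number of reads scaled to gene length and library depth.

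Glycolysis splits glucose into pyruvate. Lactate dehydrogenase then converts pyruvate to lactate, which leaves the cell through proton-coupled monocarboxylate carriers, while pyruvate dehydrogenase kinases keep pyruvate from becoming acetyl-CoA in the mitochondria. When oxygen is low, prolyl hydroxylases of the EGLN family no longer mark the alpha subunits of hypoxia-inducible factor for destruction, and the factor raises the transcription of many glycolytic genes and of genes for blood vessel growth, pH control and collagen modification. Early vertebrate embryos use glycolysis heavily even where oxygen is present, and in the chick a graded use of glycolysis is known from the tail bud and the presomitic mesoderm.

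The library depths solved from the FPKM values were 18208501 to 19843561 reads, a 1.09-fold range. Reads of the genes tested made up 98.8 to 99.0% of these depths, so they describe reads counted in genes. The FPKM sum was lowest in ZnO 1, at 480047, with 531480 to 559992 elsewhere. Markers of neural tube, crest, somite, tail bud, heart, endoderm and blood were all present, GATA1 alone had no match, and none passed the test between groups. The 6 tail bud markers summed to 106 to 138 FPKM in ZnO libraries and 111 to 139 FPKM in controls. TBXT (16.5 to 21.0 FPKM in ZnO libraries, 13.4 to 15.8 FPKM in controls) and WNT3A (3.47 to 6.46 and 2.33 to 3.19 FPKM) were higher in every ZnO library. The other 4 tail bud markers overlapped, and of these CDX4 and WNT5A had lower means in ZnO embryos. The summed FPKM of 6 somite markers was 65.6 to 80.8 in ZnO libraries and 86.6 to 107 in controls. Among them TCF15 (means of 34.1 and 50.6 FPKM in ZnO and control embryos) and MEOX1 (14.1 and 21.5 FPKM) were lower in every ZnO library. The other 4 overlapped, and of these TBX6 and MSGN1 had higher means in ZnO embryos and PAX3 and MYF5 lower ones. The summed FPKM of 6 neural tube markers was 112 to 154 in ZnO libraries and 67.3 to 124 in controls. SIX3 was higher in every ZnO library, at 29.9 to 46.0 FPKM against 13.0 to 28.8 FPKM in controls (limma adjusted p = 0.801). The other 5 overlapped. Of the 6, 5 had log2 fold changes above 0, EN2 being the exception, and the median was 0.57. At an unadjusted limma p under 0.05, 4 of the 6 were higher, where 3.06% of all genes tested were. Of the 6 heart markers 5 had lower means in ZnO embryos, with sums of 269 to 366 FPKM in ZnO libraries and 329 to 466 FPKM in controls. NKX2-5 was lower in every ZnO library than in any control. GATA4 was higher in every ZnO library, at 12.9 to 14.4 FPKM against 12.5 to 12.8 FPKM in controls. The other 4 heart markers overlapped. The crest markers summed to 132 to 145 FPKM in ZnO libraries and 130.5 to 150.5 FPKM in controls. SNAI2 among them lay at 20.6 to 23.5 FPKM in ZnO libraries and 33.2 to 37.0 FPKM in controls (limma adjusted p = 0.746). FOXD3 went the other way, at 29.7 to 49.0 FPKM in ZnO libraries and 26.5 to 29.1 FPKM in controls (limma adjusted p = 0.929). The other 4 crest markers overlapped. The part of these tissues in the members' values was not tested. The treated libraries also differ among themselves in the metal response. The metallothionein gene MT4 stood at 177 FPKM in ZnO 1, 860 FPKM in ZnO 2 and 1136 FPKM in ZnO 3, against 167 to 211 FPKM in controls. In whole embryos, fewer cells of a type and less RNA per cell cannot be told apart.

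No member passed the test between treated and control embryos. limma on log2(FPKM + 1), with Benjamini-Hochberg adjustment over 13311 genes, called 0 genes at an adjusted p under 0.05, a background of 0%, and so 0 of the 24 glycolysis members and 0 of the 14 hypoxia members. Most glycolysis members nevertheless had higher means in ZnO embryos, 21 of 24 against 43.9% of all genes tested, with a median log2 fold change of 0.30 against -0.03 for all genes. Among the hypoxia members 9 of 14 were higher, with a median of 0.06. At an unadjusted p under 0.05 there were 4 glycolysis members and 2 hypoxia members, all 6 higher in ZnO, where 3.06% of all genes were higher and 2.61% lower by that measure, and limma-voom on recovered reads gave 6 and 2, with 3.4% of all genes higher. The glycolysis count depended on the setting. It was 8 after rescaling to TPM (4.57% of all genes), 10 after quantile normalization (3.6%), 12 without ZnO 1 (5.96%) and 12 with library weights (9.03%). A fold change here is the ZnO mean minus the control mean of log2(FPKM + 1), so that differences of weakly expressed genes are understated. Without ZnO 1 the same test called 4 genes (0.0302%), 0 of them members. With libraries weighted by a reliability estimated from the same comparison it called 200 genes (1.5%), among them LDHA, SLC16A3 and PFKL.

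All 3 ZnO libraries lay above all 3 controls for 7 of the 38 members tested, where 5.6% of all genes did so, and 0 members lay below, where 5.89% of all genes did. The 7 were LDHA, SLC16A3, SLC2A14 and PFKL of the glycolysis members and EGLN3, P4HA1 and KDM3A of the hypoxia members. The list was proposed with results for several of these genes already known, so these counts describe the members and do not test them. On simulated data for this comparison, the test recovered 0% of genes changed 1.5-fold, 26.5% of those changed 2-fold and 81.5% of those changed 4-fold. It also called 1, 5 and 4 unchanged genes in these 3 runs. The simulation drew each gene and library independently, without the differences among libraries that many genes share here. It also added counting noise to an observed spread that already contained it. For both reasons recovery in the real data may differ.

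**Figure D1:**
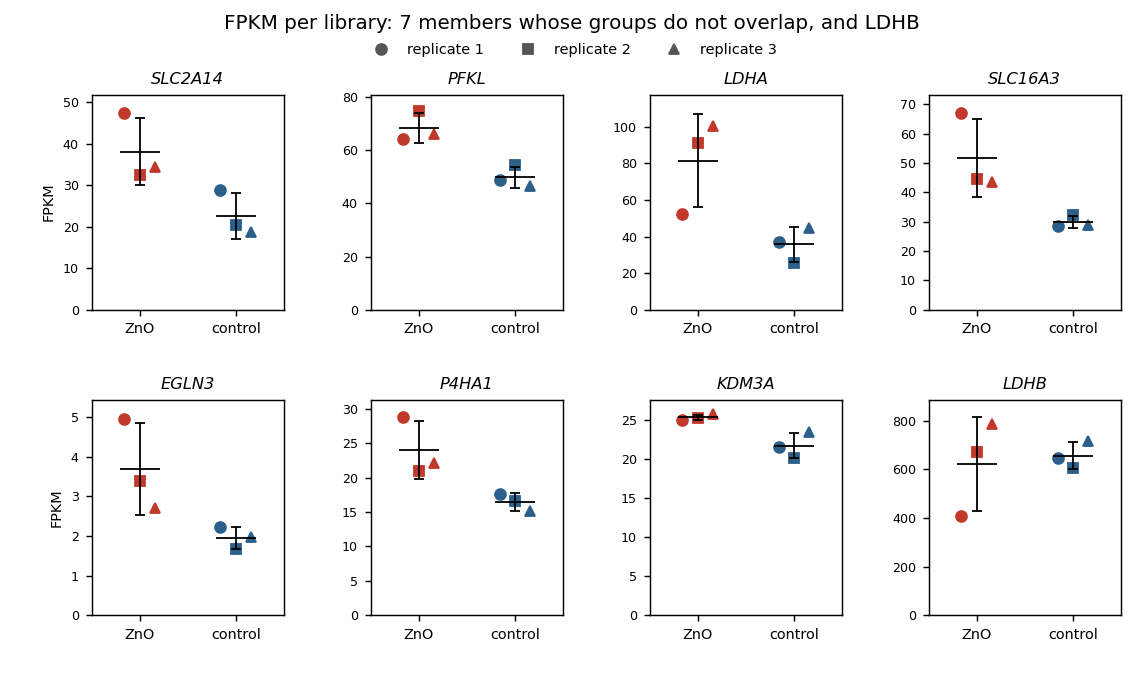
FPKM in each library (vertical axes, starting at 0) of the 7 members whose groups do not overlap and of LDHB, with ZnO libraries in red at left and controls in blue at right, the horizontal bar for the mean and the error bar for the SD (n = 3). LDHA stands at 52.5 to 101 FPKM in ZnO libraries and 25.5 to 44.8 FPKM in controls, while LDHB overlaps.

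Glucose enters through carriers of the SLC2A family. SLC2A14 (gene ID 396517, with the synonyms GLUT3 and SLC2A3 in chicken) had 47.4, 32.5 and 34.4 FPKM in ZnO 1, 2 and 3, against 28.8, 20.3 and 18.6 FPKM in control 1, 2 and 3. ZnO 1 was highest and the groups did not overlap, with a log2 fold change of 0.73 ± 0.22 SE (limma adjusted p = 0.801). SLC2A1 (ID 396130), the GLUT1 carrier and the more abundant of the pair, had 165, 83.4 and 70.2 FPKM in ZnO libraries, against 86.0, 105 and 72.9 FPKM in controls. Here only ZnO 1 stood above the controls, ZnO 3 was the lowest library of all, and the log2 fold change of 0.18 ± 0.32 SE turned to -0.19 without ZnO 1. SLC2A14 made up 27.7% ± 5.28 of the FPKM of both carriers in ZnO embryos and 20.5% ± 4.45 in controls (SD, n = 3), and the groups overlapped (exact two-sided permutation test, p = 0.2).

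Hexokinase traps glucose in the cell by phosphorylation. HK1 (ID 373889) had 17.4, 23.5 and 26.9 FPKM in ZnO 1, 2 and 3, against 18.5, 13.7 and 18.8 FPKM in controls, and HK2 (ID 374044) had 66.9, 54.6 and 46.7 FPKM against 43.2, 49.4 and 42.1 FPKM. Each gene overlapped between groups, HK1 through ZnO 1 and HK2 through ZnO 3. Their sum did not overlap, at 84.2, 78.1 and 73.6 FPKM in ZnO libraries and 61.7, 63.1 and 60.9 FPKM in controls. The HK2 share of the sum was 70.9% ± 8.04 in ZnO embryos and 72.4% ± 5.04 in controls (exact two-sided permutation test, p = 0.9), a difference of -1.56 percentage points that turned to 2.18 without ZnO 3 and to 1.34 without control 2.

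Phosphofructokinase commits the sugar to glycolysis. PFKL (ID 769850), the liver-type subunit, had 64.3, 74.8 and 65.9 FPKM in ZnO libraries, against 48.6, 54.2 and 46.5 FPKM in controls, a log2 fold change of 0.45 ± 0.15 SE (limma adjusted p = 0.827). Every ZnO library lay above every control, and ZnO 2 was highest. The muscle-type gene PFKM had means of 8.40 ± 1.41 and 8.43 ± 0.367 FPKM in ZnO and control embryos, and the platelet-type gene PFKP had 35.1 ± 4.88 and 34.9 ± 1.91 FPKM (SD, n = 3). PFKL therefore made up 58.2, 61.2 and 64.1% of the phosphofructokinase FPKM in ZnO 1, 2 and 3, and 51.8, 56.1 and 52.3% in control 1, 2 and 3.

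The bifunctional enzymes PFKFB3 and PFKFB4 set the level of an activator of phosphofructokinase. PFKFB3 stood at 8.27 FPKM in ZnO 1 but at 4.12 and 3.94 FPKM in ZnO 2 and 3, within the control range of 3.76 to 4.42 FPKM. PFKFB4 varied little, at 34.8 ± 0.721 FPKM in ZnO embryos and 33.8 ± 0.528 FPKM in controls, and the interval of its log2 fold change ran from -0.26 to 0.33.

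The middle steps showed small mean differences. Glucose-6-phosphate isomerase, GPI, had 130.2 ± 28.9 FPKM in ZnO embryos and 124 ± 10.3 FPKM in controls. Aldolase C, ALDOC, had 865 ± 165 and 728 ± 66.1 FPKM, and triose phosphate isomerase, TPI1, had 324 ± 74.7 and 319 ± 39.9 FPKM. The 95% intervals of their log2 fold changes, -0.42 to 0.52, -0.24 to 0.71 and -0.51 to 0.52, all included 0.

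The steps from GAPDH to pyruvate kinase held most of the members' FPKM. GAPDH (ID 374193), the dehydrogenase often used as a reference gene, had 1245, 1656 and 1916 FPKM in ZnO 1, 2 and 3, against 1192, 841 and 1274 FPKM in control 1, 2 and 3. ZnO 2 and 3 stood above all controls, and ZnO 1 lay between control 1 and control 3, with a log2 fold change of 0.54 ± 0.25 SE (limma adjusted p = 0.896). The phosphoglycerate mutase gene PGAM1 (ID 428969) had 589, 794 and 809 FPKM in ZnO libraries, against 517, 437 and 613 FPKM in controls, a log2 fold change of 0.48 ± 0.22 SE (limma adjusted p = 0.895). It showed the same order of libraries, with ZnO 1 below control 3.

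The phosphoglycerate kinase gene PGK1 had 239 ± 52.3 FPKM in ZnO embryos and 179 ± 18.1 FPKM in controls. The enolase gene ENO1 had 1059 ± 205 and 858 ± 133 FPKM, and the pyruvate kinase gene PKM had 1081 ± 260.2 and 868 ± 169 FPKM (SD, n = 3). In all 3 genes ZnO 2 and ZnO 3 lay above every control and ZnO 1 lay inside the control range. ENO2, the neuronal enolase, was low at 1.90 to 5.15 FPKM in ZnO libraries and 2.05 to 3.35 FPKM in controls. From GAPDH to PKM the 6 members summed to 3637, 5015 and 5504 FPKM in ZnO 1, 2 and 3, and to 3562, 2900.1 and 4135 FPKM in control 1, 2 and 3. The 25 glycolysis members together took 1.22, 1.44 and 1.55% of the FPKM of ZnO 1, 2 and 3, and 1.10, 0.964 and 1.18% in controls, so that every ZnO library lay above every control. Without dividing by the library's FPKM sum the groups overlapped, at 5864, 7856 and 8328 FPKM in ZnO libraries and 5915, 5122 and 6634 FPKM in controls. Among the further pathway lists described below, gluconeogenesis and glycogen genes took 0.0590 to 0.0868% in ZnO libraries and 0.0484 to 0.0527% in controls. Other oxygen sensing and hypoxia genes took 0.170 to 0.219% and 0.156 to 0.168%. Their summed FPKM did not overlap either, at 321 to 466 against 271 to 282 and 912 to 1050 against 876 to 902. The other glycolysis and pyruvate genes and the pentose phosphate pathway genes overlapped by both measures.

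**Figure D2:**
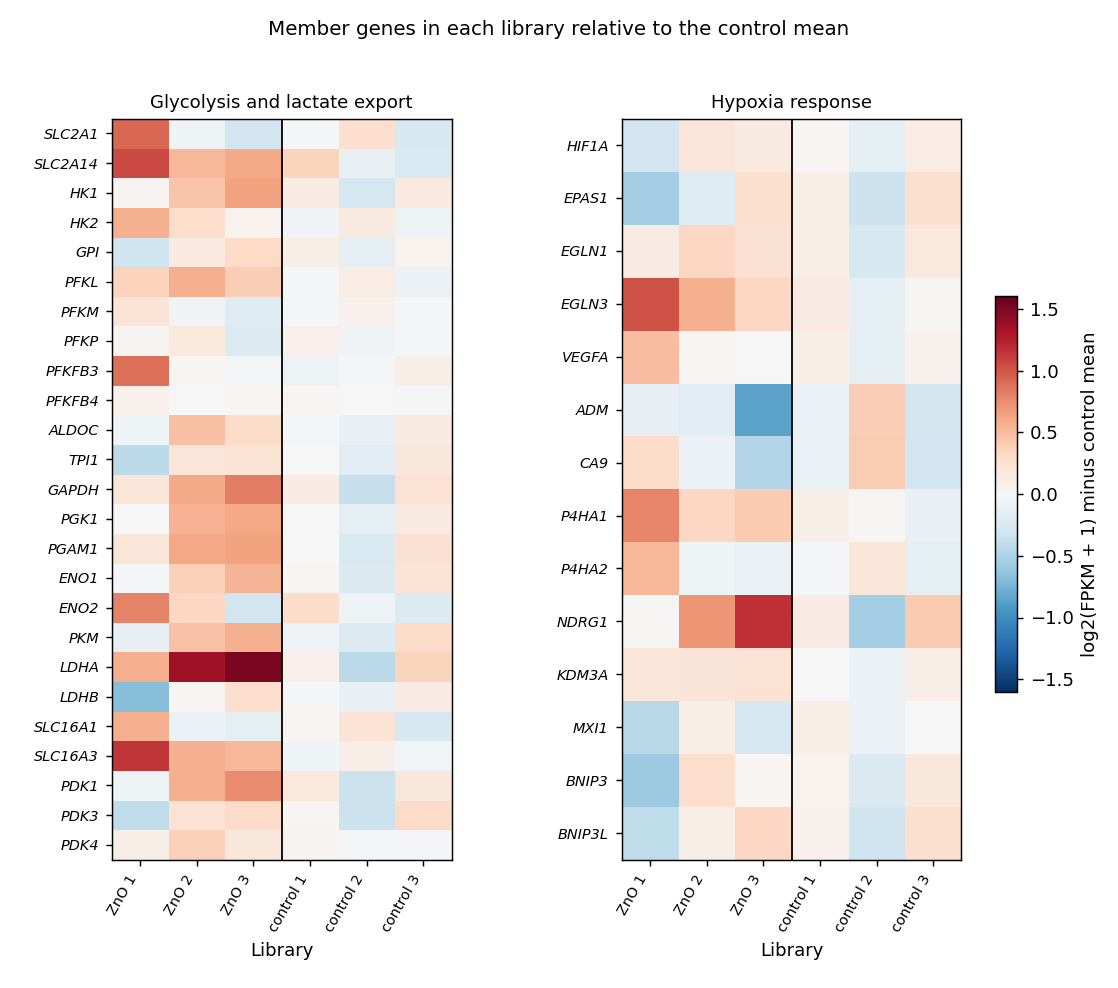
Level of each member in each library as log2(FPKM + 1) minus the control mean (colour, red higher and blue lower), with ZnO libraries left of the black line and controls right of it, 25 glycolysis members in the left panel and 14 hypoxia members in the right. GAPDH, PGK1, PGAM1, ENO1, PKM and LDHA are higher in ZnO 2 and ZnO 3 than in ZnO 1, while SLC2A1, SLC16A1 and PFKFB3 are highest in ZnO 1.

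Lactate dehydrogenase is built from the products of LDHA and LDHB. LDHA (ID 396221), the muscle-type subunit and a known hypoxia target in mammals, had 52.5, 91.04 and 101 FPKM in ZnO 1, 2 and 3, against 36.9, 25.5 and 44.8 FPKM in control 1, 2 and 3. Every ZnO library exceeded every control, with the smallest gap between ZnO 1 and control 3. The means differed 2.28-fold, the log2 fold change was 1.15 ± 0.29 SE with an interval of 0.48 to 1.82, and the limma adjusted p was 0.782. Each library held at least 757 LDHA reads. LDHB (ID 373997), the heart-type subunit and the main form in these embryos, had 408, 669.9 and 786 FPKM in ZnO libraries, against 647, 604 and 715 FPKM in controls. It overlapped between groups, ZnO 1 was the lowest library, and its log2 fold change of -0.13 ± 0.26 SE turned to 0.15 without ZnO 1.

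As a share of both genes, LDHA took 11.4, 11.96 and 11.4% of the FPKM in ZnO 1, 2 and 3, against 5.40, 4.05 and 5.89% in control 1, 2 and 3. The groups did not overlap, and the share was close to equal among ZnO libraries although the LDHA level of ZnO 1 was below that of the others. The mean share was 11.6% ± 0.339 in ZnO embryos and 5.11% ± 0.951 in controls, a difference of 6.46 percentage points. The exact two-sided permutation test gave p = 0.1, the smallest that 3 against 3 libraries allow, and 0.2 when adjusted over the 4 shares tested. Groups of 3 that do not overlap always give this p, so it adds nothing to the lack of overlap. The shares were also chosen with earlier results of these data known. A share within a library does not depend on how libraries are scaled. How the counting treated reads that match both paralogs is not stated, and it could affect the share.

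Lactate leaves through monocarboxylate carriers. SLC16A3 (ID 395383), the MCT4 carrier typical of cells that export lactate, had 67.2, 44.6 and 43.4 FPKM in ZnO 1, 2 and 3, against 28.5, 32.3 and 28.8 FPKM in control 1, 2 and 3. All ZnO libraries lay above all controls and ZnO 1 was highest, with a log2 fold change of 0.75 ± 0.20 SE, an interval of 0.30 to 1.20 and a limma adjusted p of 0.782. SLC16A1 (ID 419875), the widely expressed MCT1 carrier, had 198, 123 and 119 FPKM in ZnO libraries, against 135, 154 and 110.4 FPKM in controls. Only ZnO 1 lay outside the control range, and the log2 fold change of 0.11 ± 0.24 SE turned to -0.13 without ZnO 1 and to -0.02 without control 3.

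SLC16A3 made up 25.3, 26.7 and 26.8% of the FPKM of the pair in ZnO 1, 2 and 3, and 17.4, 17.4 and 20.7% in control 1, 2 and 3. As with lactate dehydrogenase, the share was close to constant among ZnO libraries while the level of each gene was not. The difference was 7.76 percentage points, with means of 26.3% ± 0.815 and 18.5% ± 1.90 in ZnO and control embryos (exact two-sided permutation test, p = 0.1, adjusted p = 0.2 over the 4 shares). The limits given for the test of the LDHA share hold here too.

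**Figure D3:**
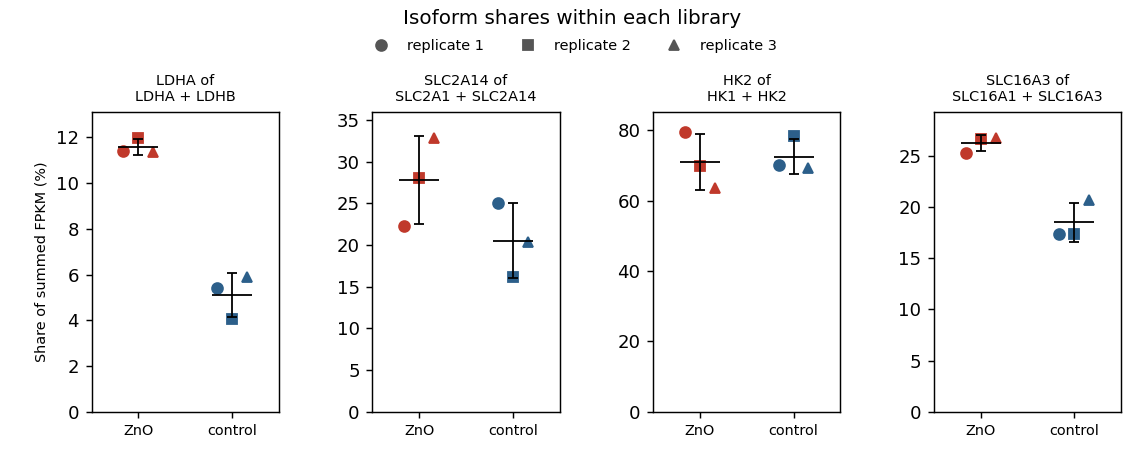
Share of the first gene in the summed FPKM of a gene pair (percent, axes from 0) in each library, with ZnO at left and control at right of each panel, marker shapes for replicate numbers, the horizontal bar for the mean and the error bar for the SD (n = 3). The LDHA and SLC16A3 shares do not overlap between groups, at 11.4 to 11.96% against 4.05 to 5.89% and 25.3 to 26.8% against 17.4 to 20.7%, and the other pairs do.

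Pyruvate dehydrogenase kinases inhibit pyruvate dehydrogenase in the mitochondria. PDK1, a hypoxia target in mammals, had 12.9, 20.6 and 23.5 FPKM in ZnO libraries and 15.3, 10.4 and 15.4 FPKM in controls, and PDK3 had 15.996 ± 4.23 and 15.4 ± 3.58 FPKM (SD, n = 3). Both overlapped between groups. ZnO 1 lay below control 1 and control 3 for PDK1, and for PDK3 ZnO 1 was the lowest and control 3 the highest library. As a share of the 3 kinase genes PDK1 took 52.0 to 54.4% in ZnO libraries and 44.1 to 48.6% in controls, which did not overlap. The shares of PFKL, PDK1, EGLN3 and P4HA1 are the 4 of 11 such family shares, computed after the values had been seen and not tested, in which every ZnO library lay above every control. The PFKP share lay below, at 28.9 to 32.7% in ZnO libraries and 34.7 to 39.5% in controls, and the other 6 (PFKM, PFKFB3, ENO2, PDK4, EPAS1 and BNIP3) overlapped. Shares of the same sum are tied to each other. A higher PFKL share leaves less for PFKP and PFKM, so the PFKL and PFKP results are not separate. Of 9 sums over the genes of a step, those of hexokinase, phosphofructokinase and the PFKFB enzymes lay above all controls in every ZnO library. The PFKFB sum did so narrowly, at 38.17 FPKM in ZnO 2 against 38.15 FPKM in control 1. No step sums or family shares were computed for genes outside the members, so these counts have no background. Sums over whole lists were computed, and those of some further lists did not overlap either, as given above. The other 6 step sums overlapped. Among the 6, lactate dehydrogenase summed to 460.5 to 887 FPKM in ZnO libraries and 630.0 to 760.0 FPKM in controls, and the lactate carriers to 162 to 265 FPKM in ZnO libraries and 139 to 186 FPKM in controls.

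Among the oxygen sensors, the transcripts of the factors themselves showed little difference. HIF1A (ID 374177), the alpha subunit controlled by oxygen, had 26.0, 37.2 and 35.9 FPKM in ZnO 1, 2 and 3, against 33.2, 29.1 and 35.4 FPKM in controls, a log2 fold change of 0.01 with an interval of -0.41 to 0.42. ZnO 1 was the lowest library, and the sign turned without control 2 (-0.070), ZnO 2 (-0.086) or ZnO 3 (-0.061). Its relative EPAS1 (ID 395596) had 32.6, 41.5 and 57.7 FPKM in ZnO libraries, against 51.4, 37.6 and 57.5 FPKM in controls, a log2 fold change of -0.16 that was 0.026 without ZnO 1. Oxygen acts on these factors mainly through protein stability, which RNA sequencing does not measure.

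The hydroxylase gene EGLN3 (ID 423316), itself a target of the factor in mammals, had 4.96, 3.39 and 2.71 FPKM in ZnO 1, 2 and 3, against 2.22, 1.67 and 1.98 FPKM in control 1, 2 and 3. Each ZnO library lay above each control, with a log2 fold change of 0.64 ± 0.20 SE (limma adjusted p = 0.827) on 143 to 426 reads per library. EGLN1 (ID 768374), the main oxygen sensor of this family, had 16.7, 19.4 and 18.3 FPKM in ZnO libraries, against 16.2, 12.5 and 17.3 FPKM in controls, and overlapped through ZnO 1 and control 3. EGLN3 took 12.9 to 22.9% of the FPKM of the pair in ZnO libraries and 10.3 to 12.02% in controls.

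Collagen prolyl hydroxylase needs oxygen as well, and its alpha subunit genes are induced by low oxygen in mammals. P4HA1 (ID 423704) had 28.8, 20.9 and 22.2 FPKM in ZnO 1, 2 and 3, against 17.6, 16.6 and 15.1 FPKM in control 1, 2 and 3. The groups did not overlap and ZnO 1 was highest, with a log2 fold change of 0.51 ± 0.16 SE (limma adjusted p = 0.827). P4HA2 had 17.0 ± 4.70 and 15.3 ± 1.998 FPKM in ZnO and control embryos and stood above the controls only in ZnO 1. P4HA1 made up 56.2 to 61.1% of the pair in ZnO libraries and 48.7 to 54.3% in controls.

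Other hypoxia targets did not move together. The histone demethylase gene KDM3A (ID 422917) had 24.98, 25.2 and 25.7 FPKM in ZnO 1, 2 and 3, against 21.5, 20.1 and 23.4 FPKM in control 1, 2 and 3, a small log2 fold change of 0.22 ± 0.13 SE with no overlap (limma adjusted p = 0.943). The stress-responsive gene NDRG1 (ID 420321) had 22.3, 36.7 and 50.9 FPKM in ZnO libraries, against 24.1, 14.8 and 29.8 FPKM in controls, and ZnO 1 lay within the control range. Adrenomedullin, ADM (ID 423042), a vasodilator peptide, had 10.8, 10.4 and 6.13 FPKM in ZnO libraries, against 10.99, 15.9 and 9.48 FPKM in controls, a log2 fold change of -0.38 ± 0.25 SE. Only ZnO 3 lay below all controls.

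The vascular growth factor gene VEGFA had 29.9 ± 6.29 FPKM in ZnO embryos and 26.1 ± 2.55 FPKM in controls. The carbonic anhydrase gene CA9, which serves pH control at the cell surface, had 144 ± 38.0 and 153 ± 40.98 FPKM. The mitophagy receptor genes BNIP3 (19.5 ± 5.87 and 20.4 ± 3.06 FPKM) and BNIP3L (38.8 ± 9.74 and 38.2 ± 7.61 FPKM) and the MYC antagonist gene MXI1 (6.44 ± 1.43 and 7.50 ± 0.614 FPKM) overlapped between groups as well (SD, n = 3). The summed FPKM of the 14 hypoxia members was 457, 449 and 442 in ZnO libraries and 428, 442 and 427 in controls, with ZnO 3 below control 2.

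**Figure D4:**
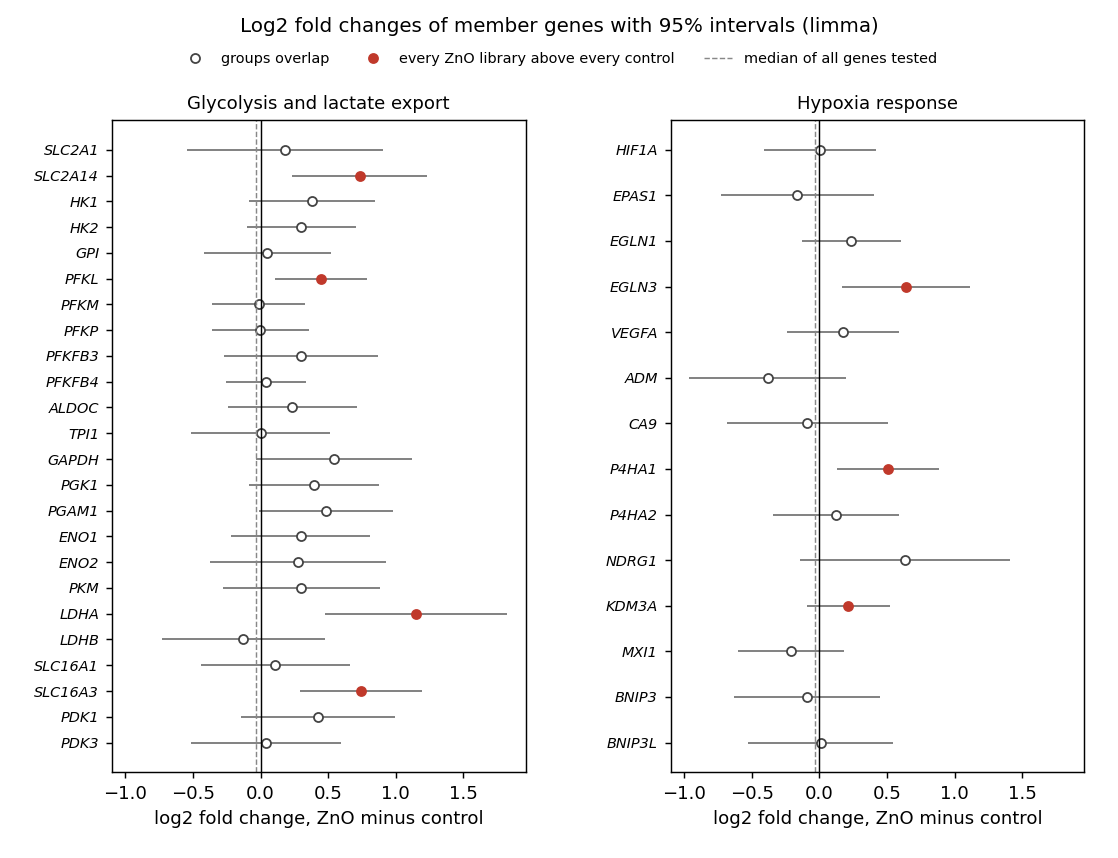
Log2 fold change of each tested member (horizontal axis, ZnO mean minus control mean of log2(FPKM + 1)) with its 95% interval from limma, 24 glycolysis members at left and 14 hypoxia members at right. Filled red points mark the 7 members with every ZnO library above every control, LDHA lies farthest right at 1.15, and the dashed line is the median of all 13311 genes at -0.03.

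Most members shared the sign of their differences within the groups. In 21 of the 38 members ZnO 1 was below the mean of ZnO 2 and ZnO 3 and control 2 was below the mean of control 1 and control 3, and in 9 both were above, while 7 had ZnO 1 above and control 2 below and PFKL had the opposite. The first set includes LDHA, LDHB, GAPDH, PKM, PDK1, NDRG1 and EPAS1, and the second SLC2A1, SLC16A1, SLC16A3, HK2, CA9, ADM and P4HA2. LDHA was lower by 0.85 in ZnO 1 and by 0.65 in control 2 on the log2(FPKM + 1) scale, and SLC2A1 was higher by 1.10 and 0.41. This sharing of sign, 30 of 38 members or 78.9%, was close to that among all genes tested, at 78.6%. By direction, 55.3% of members and 42.7% of all genes were lower in both libraries, and 23.7% of members and 35.9% of all genes were higher in both.

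Markers of endoderm and yolk sac differed along the same libraries only in part. The 6 listed, led by the apolipoprotein gene APOA1 and the transthyretin gene TTR, summed to 8063, 3483 and 5761 FPKM in ZnO 1, 2 and 3, and to 6633, 9475 and 3995 FPKM in control 1, 2 and 3, so that ZnO 1 and control 2 were highest in their groups. APOA1, TTR and the weakly expressed RBP4 each showed this singly. SOX17 and FOXA2 were lowest in control 2 among the controls, FOXA2 was highest in ZnO 2, and APOB was highest in ZnO 3. None of the 6 was at 0 in any library, and their part in the members' values was not tested either. The 5 endothelial and blood markers matched summed to 530, 715 and 1212 FPKM in ZnO 1, 2 and 3. In control 1, 2 and 3 they summed to 874, 687 and 771 FPKM. Within their groups, HBZ and LMO2 were lowest in ZnO 1 and control 2, and TAL1 in ZnO 1 and control 3. KDR and CDH5 were highest in ZnO 1 among the ZnO libraries and lowest in control 3 among the controls. The part of these markers was not tested. The 7 members without overlap included LDHA, which was lower in ZnO 1 than in the other ZnO libraries, and SLC16A3, SLC2A14, EGLN3 and P4HA1, which were highest there.

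**Figure D5:**
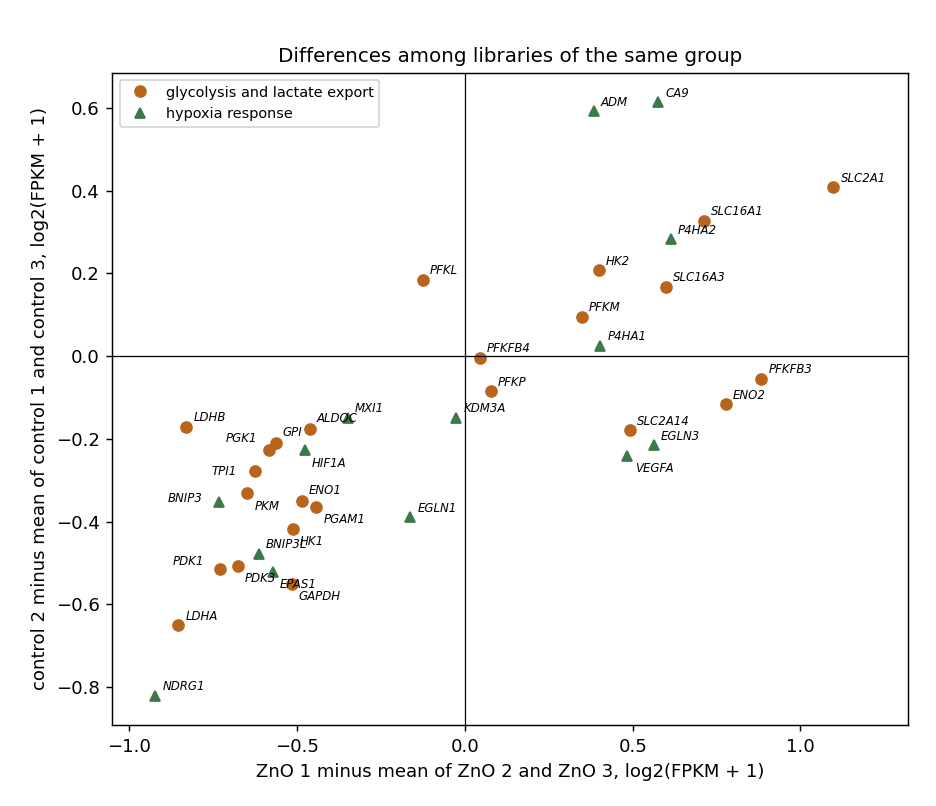
Differences among libraries of the same group for the 38 members tested, as log2(FPKM + 1) of ZnO 1 minus the mean of ZnO 2 and ZnO 3 (horizontal axis) and of control 2 minus the mean of control 1 and control 3 (vertical axis), with circles for glycolysis and triangles for hypoxia members. There are 21 members in the lower left and 9 in the upper right quadrant.

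Further genes of these pathways, from 4 lists beside the members, were counted in the same way. Of 26 other glycolysis and pyruvate genes tested, 10 were higher and 16 lower in ZnO embryos (median log2 fold change -0.04), and 0 passed. The 4 with the smallest p were PDP1, the phosphatase that opposes the pyruvate dehydrogenase kinases (4.57 ± 0.286 and 5.99 ± 0.501 FPKM in ZnO and control embryos, lower in each ZnO library), DLAT, a subunit of pyruvate dehydrogenase (27.4 ± 3.49 and 20.8 ± 2.98 FPKM, higher in each), HKDC1 (3.77 ± 1.26 and 2.38 ± 0.482 FPKM) and MINPP1 (4.87 ± 1.0596 and 3.57 ± 0.541 FPKM). Of 12 gluconeogenesis and glycogen genes, 7 were higher and 5 lower, with 0 passing (median log2 fold change 0.22). PCK2, the mitochondrial enzyme that makes phosphoenolpyruvate, had 115, 99.1 and 158 FPKM in ZnO 1, 2 and 3, against 64.5, 63.2 and 70.7 FPKM in controls, a log2 fold change of 0.87 ± 0.20 SE (limma adjusted p = 0.746). Its cytosolic counterpart PCK1 had 7.71 FPKM in ZnO 1 but 1.28 and 2.54 FPKM in ZnO 2 and 3, against 0.639 to 1.95 FPKM in controls. The glycogen synthase gene GYS2 (1.83 ± 0.699 and 0.969 ± 0.224 FPKM) and the glycogen phosphorylase gene PYGB (16.2 ± 0.460 and 19.6 ± 0.699 FPKM, lower in each ZnO library) had p values between those of PCK2 and PCK1.

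Of the 5 pentose phosphate pathway genes tested, 1 was higher and 4 lower (median log2 fold change -0.11), with 0 passing, and all overlapped between groups. The smallest p values were those of H6PD (3.77 ± 1.13 and 4.80 ± 0.698 FPKM in ZnO and control embryos), PGLS (74.9 ± 8.0004 and 80.8 ± 5.24 FPKM), PGD (52.2 ± 10.6 and 55.8 ± 2.19 FPKM) and RPIA (38.6 ± 9.12 and 35.8 ± 0.958 FPKM).

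Of 29 other oxygen sensing and hypoxia genes, 19 were higher and 10 lower (median log2 fold change 0.07), with 0 passing. LOX (ID 396474), the lysyl oxidase that crosslinks collagen and a hypoxia target in mammals, had 4.55, 4.31 and 3.12 FPKM in ZnO 1, 2 and 3, against 1.47, 1.57 and 1.80 FPKM in control 1, 2 and 3. The groups did not overlap, and the log2 fold change was 0.92 ± 0.17 SE (limma adjusted p = 0.611) on 34 to 105 reads per library. DDIT4, an inhibitor of growth signalling induced by low oxygen and other stresses, had 343, 391 and 256 FPKM in ZnO libraries, against 223, 219.6 and 238 FPKM in controls. The amino acid carrier gene SLC7A5 (78.8 ± 20.4 and 56.9 ± 4.63 FPKM in ZnO and control embryos) was also higher in each ZnO library, and the carbonic anhydrase gene CA12 (1.29 ± 0.951 and 2.24 ± 0.447 FPKM) overlapped.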

How the data were processed

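RNA was extracted with Trizol from whole embryos and TruSeq libraries made from 1 µg of it were sequenced in pairs on an Illumina instrument, per the labels' protocols. Bowtie2 2.2.3, TopHat2 2.0.12 and HTSeq 0.6.1 are named in the submitters' processing notes, which give no parameters and name mm10, a mouse build, while 19704 of 24098 gene IDs (81.8%) could be named from RefSeq's chicken gene table (assembly GRCg7b), from which no coordinates or sequences are given. The deposited values behave as FPKM. They were whole multiples of a step set by gene length and library depth, and with the depths solved from these steps each of the 13311 tested genes came out at whole reads in all libraries (tolerance 0.005), against 0 of 500 genes with wrong depths. No source used here says whether counting used strand, so reads of a gene and an antisense partner may not be told apart.

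After a filter at a mean of 1 FPKM, limma 3.58.1 (R 4.3.3) compared the groups by empirical Bayes with a trend on log2(FPKM + 1), two-sided, without a replicate block, at an adjusted p of 0.05. Group errors are SD over 3 libraries. Isoform shares were compared with exact permutation tests in SciPy 1.17.1. The members, lists and tests were chosen with earlier results of these data known. Values in every library are given for members whose groups do not overlap, the 6 with the smallest p in each set, both genes of each tested share, HIF1A and EPAS1, and up to 4 genes are named per further list. PDK1 was given in full after its values were seen. Alternatives covered the pseudocount, filters, scaling, limma-voom with a trimmed mean of M values, library weights, a replicate block and each library left out.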

Additional observations from a re-analysis of the deposited data

How the results depend on the processing

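Over 15 alternatives, the log2 fold changes of LDHA (0.93 to 1.43), SLC16A3 (0.55 to 0.86), SLC2A14 (0.37 to 0.91), PFKL (0.38 to 0.54), EGLN3 (0.45 to 0.89), P4HA1 (0.32 to 0.59) and KDM3A (0.17 to 0.27) kept their sign. In most alternatives it could not turn, because the groups of these genes do not overlap. This holds for the other pseudocount, the filters, the replicate block and each library left out. With library weights estimated from the same comparison, which gave ZnO 1 a weight of 0.197 and control 1 a weight of 3.94, 200 genes passed, among them 3 glycolysis members, LDHA (adjusted p = 0.0179), SLC16A3 (0.0407) and PFKL (0.0468), where 1.5% of all genes were called. The signs of LDHB (0.064), SLC16A1 (-0.10) and SLC2A1 (-0.060) also turned with those weights. The same 3 genes turned the same way without ZnO 1, at 0.15, -0.13 and -0.19, and the cause was not tested. Leaving out 1 library gave 0 to 4 genes called, the 4 without ZnO 1, and 0 members in every case. It gave ranges of -0.38 to 0.026 for EPAS1, -0.086 to 0.17 for HIF1A, -0.32 to 0.15 for LDHB, -0.13 to 0.24 for SLC16A1, -0.19 to 0.42 for SLC2A1 and -5.81 to 2.18 percentage points for the HK2 share. The LDHA share difference stayed at 5.93 to 6.85 percentage points and that of SLC16A3 at 7.21 to 8.86, and 19 to 22 glycolysis members were higher. The median of the hypoxia members was 0.07 to 0.16 with 1 library left out, and 0.16 without ZnO 1. Of the 14 hypoxia members 7 to 10 were higher, with 7 higher and 7 lower without ZnO 2. Other settings moved the median of all genes between -0.04 and 0.02. Deviations from the group means correlated at -0.03, -0.37 and 0.41 between same-numbered libraries, and at -0.56 to 0.58 between the others. The labels do not say what a number marks, and so few libraries cannot decide whether the numbers pair them. With the replicate block 0 genes and 0 members passed, as without it, and LDHA stood at 1.15 (adjusted p = 0.524). LOX (34 to 105 reads per library) and EGLN3 (143 to 426) rest on few reads.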
